A study of Mus musculus with 10 samples.

Results

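Branched-chain amino acid (BCAA) catabolism was followed through 10 genes in visceral white adipose tissue (WAT) of mice. The genes were listed by symbol and each was matched to 1 of the 47937 gene identifiers in the count files. All of them passed the filter on low counts in each comparison. The tissue had been profiled by mRNA-seq. On standard diet (SD) there were 3 libraries of Mof+/+ and 3 of Mof+/- mice, and on high-fat diet (HFD) 2 of each genotype, 10 in all. MOF is the acetyltransferase of lysine 16 of histone H4, and the study asked what its loss from one allele does to WAT on each diet. By the sample descriptions the C57BL/6 mice on SD were 8 weeks old, and those on HFD were 27 weeks old after 20 weeks of the diet, so that diet and age cannot be told apart. The study's methods describe the mice of this assay as male, and its text gives a longer HFD and other ages than the descriptions, which were followed here. The heterozygous mice carried the loss in the whole body. The replicates are described as biological ones, and no label says whether a library came from 1 animal or from a pool.

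Leucine, isoleucine and valine are not made by mammals and share the first steps of their breakdown, which in adipocytes feeds acetyl-CoA and propionyl-CoA into central metabolism and lipid synthesis. The mitochondrial aminotransferase BCAT2 removes the amino group, and the branched-chain ketoacid dehydrogenase (BCKDH) complex then decarboxylates the ketoacid in the step that commits it to breakdown. The complex is built from the E1 subunits BCKDHA and BCKDHB, the E2 core DBT and a shared E3 subunit, and the kinase BCKDK switches E1 off. Downstream, IVD and the carboxylase subunits MCCC1 and MCCC2 act on the leucine arm, HIBADH acts on the valine arm, and the mutase encoded by Mut passes the propionyl-CoA of valine and isoleucine on to succinyl-CoA. Adipose tissue is known as a site of BCAA use whose capacity falls in obesity.

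The library total on genes ranged from 1.04 to 17.2 M counts (median 7.79 M). The lowest total was that of HFD Mof+/- replicate 1, in which 16 skeletal muscle genes took 8.38% of the counts and genes of the mitochondrial genome 26.9%, against 0.201% and 1.79% in HFD Mof+/- replicate 2 and at most 0.0138% and 8.82% in the others. The 10 adipocyte markers were detected in every library and took between 1.94% (HFD Mof+/- replicate 1) and 9.11% of the counts. The column headings inside the files give the third SD library of each genotype the name of the other genotype. HFD Mof+/- replicates 1 and 2 are headed het_HFD_3 and het_HFD_4. The sample labels were followed here. In all 3 SD Mof+/- libraries the Y-linked genes were at 0 counts and Xist, the RNA of the inactive X, was at 50.6 to 152 normalised CPM, while Xist was at 0 in the other 7 libraries. In the comparison of the genotypes on SD, in that of the diets in Mof+/- and in the interaction of genotype and diet, sex and the labelled condition therefore cannot be told apart. Each value below is a normalised CPM, that is, the count scaled to the library total (CPM) and by TMM factors of 0.839 to 1.18, unless it is called a level per length.

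Mof is listed as Kat8 and occupies bases 127912516 to 127925837 of chromosome 7 (GRCm38, plus strand). The member Bckdk ends 2294 bases before it on the same strand. Kat8 was at 18.9, 18.9 and 17.3 in the SD Mof+/+ libraries and at 13.4, 20.6 and 13.6 in SD Mof+/-. The HFD libraries had 17.0 and 18.1 in Mof+/+, and 24.1 and 10.8 where the label was Mof+/-. On this scale the genotypes overlapped on both diets. On CPM without the TMM factors they did not overlap on SD (Kat8 at 20.4 to 21.5 in Mof+/+ and 11.5 to 18.8 in Mof+/-), so whether the RNA of the targeted gene separates the labels on SD depended on the scaling. The log2 fold change of Kat8 in Mof+/- was −0.22 ± 0.35 (SE) on SD, with an adjusted p of 0.736, and 0.06 ± 0.82 on HFD, with an adjusted p of 0.987 (edgeR's quasi-likelihood test).

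Exons of Bcat2, Bckdha, Mccc1 and Mut overlap a gene on the other strand, and since the library kit did not mark strand, reads from the shared stretches cannot be told apart. Levels per length used the merged length of all annotated exons of a gene, on which their order therefore depends. This length was 10952 bases for Mccc1 and 10179 for Hibadh, against 1805 to 5505 for the other genes. Per kilobase of exon, the E1 subunit gene Bckdha had the highest level of the 10 genes in every library, and the carboxylase gene Mccc1 the lowest in 8 of the 10. In SD Mof+/- replicate 1 Bcat2 was below Mccc1 (12.1 against 20.9 RPKM), and in HFD Mof+/- replicate 1 Bckdhb and Ivd were (4.44 and 9.36 against 10.04 RPKM). In SD Mof+/+ the level per length of Bckdha was 90.7 ± 16.9 RPKM (standard deviation, s.d., n = 3), Ivd followed at 47.2 ± 7.93, and the others lay between 11.5 ± 1.82 for Mccc1 and 36.6 ± 3.50 for Mccc2. In the SD Mof+/+ libraries, neighbours in this order overlapped from Mccc2 down to Bcat2, while Bckdha, Ivd, Hibadh and Mccc1 were each separated from the next gene. In HFD Mof+/+ Bckdha was at 72.5 ± 1.68 RPKM (s.d., n = 2) and Bckdhb, at 42.3 ± 4.48, came next, while Ivd stood at 17.2 ± 4.86 and the lowest, Mccc1, at 6.83 ± 0.52. Bckdhb was thus 4th in the SD Mof+/+ order and 2nd in that of HFD Mof+/+, with Ivd 2nd and 5th. The place of Ivd on HFD is not resolved. There Mut (18.3 ± 6.29 RPKM), Mccc2 (17.9 ± 4.45), Ivd and Bckdk (17.1 ± 0.32) overlapped. On normalised CPM, which takes no account of length, Mccc1 was at 126 ± 19.9 and Mccc2 at 103 ± 9.82 in SD Mof+/+.

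The clearest contrast was between the diets in Mof+/+, where 9 of the 10 genes were lower on HFD with no overlap between the libraries and Bckdhb was higher by a difference that depended on the scaling. At an adjusted p under 0.05, 4 of the 10 genes fell (Ivd, Mccc2, Dbt and Bcat2) and none rose, where 9.75% of the 14939 genes tested passed in either direction and 3.73% as lower. At an unadjusted p under 0.05, 5 genes were lower, against 13.8% of all genes. The groups did not overlap for 9 lower genes and 1 higher gene, where 24% of all genes were lower and 25.1% higher without overlap. The median log2 fold change of the 10 genes was −0.64, that of all genes tested −0.04.

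The promoters of 3 of the genes that fell (Bcat2, Ivd and Mccc2) are shown with that of Bckdhb, the gene that did not fall. They are RefSeq sequences of GRCm38.p6, 5′ to 3′ on the gene's strand, from 250 bases before to 50 bases after the start. Bcat2 and Bckdhb each had 2 such sequences, and only the one nearest the annotated start of the gene was searched. Capitals mark 3 motifs searched on both strands, the CCAAT box (CCAAT), the GC box (GGGCGG) and a half-site of nuclear receptors (AGGTCA).
Bcat2, chr7:45569903-45570202, plus strand: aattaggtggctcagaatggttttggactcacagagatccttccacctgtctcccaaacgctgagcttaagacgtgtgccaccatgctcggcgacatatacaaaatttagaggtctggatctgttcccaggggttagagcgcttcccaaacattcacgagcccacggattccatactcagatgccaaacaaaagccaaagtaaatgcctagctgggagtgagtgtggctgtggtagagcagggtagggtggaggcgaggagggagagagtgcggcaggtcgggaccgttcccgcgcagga
Ivd, chr2:118861744-118862043, plus strand: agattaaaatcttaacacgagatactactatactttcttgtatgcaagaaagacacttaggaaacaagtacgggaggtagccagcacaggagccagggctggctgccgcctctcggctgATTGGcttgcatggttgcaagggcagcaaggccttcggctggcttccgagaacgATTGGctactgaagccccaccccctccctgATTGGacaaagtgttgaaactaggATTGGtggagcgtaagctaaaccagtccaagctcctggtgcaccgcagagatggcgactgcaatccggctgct
Mccc2, chr13:100015590-100015889, minus strand: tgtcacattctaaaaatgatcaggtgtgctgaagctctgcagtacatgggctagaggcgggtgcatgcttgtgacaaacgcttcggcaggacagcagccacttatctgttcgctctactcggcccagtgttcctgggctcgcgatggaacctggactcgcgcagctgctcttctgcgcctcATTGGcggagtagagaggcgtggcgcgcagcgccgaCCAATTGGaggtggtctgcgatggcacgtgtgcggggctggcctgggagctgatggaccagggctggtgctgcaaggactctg
Bckdhb, chr9:83924887-83925186, plus strand: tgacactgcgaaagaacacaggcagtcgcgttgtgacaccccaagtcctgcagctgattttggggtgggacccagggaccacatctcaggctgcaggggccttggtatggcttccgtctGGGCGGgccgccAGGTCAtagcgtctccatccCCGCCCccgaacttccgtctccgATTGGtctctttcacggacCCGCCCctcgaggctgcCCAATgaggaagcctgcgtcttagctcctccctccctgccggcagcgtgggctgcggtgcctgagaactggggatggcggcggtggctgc
The window of Ivd holds 4 CCAAT matches, all on the reverse strand. That of Mccc2 holds 3, of which a pair overlap in 1 palindrome, and that of Bcat2 holds no match to any motif. The Bckdhb window holds 2 CCAAT matches, 3 GC boxes and 1 half-site. Among the windows not shown, that of Hibadh holds 1 CCAAT match, 3 GC boxes and 1 half-site, and that of Mccc1 3 CCAAT matches and 1 GC box. Both genes were lower on HFD in Mof+/+ without overlap, so these matches are not particular to Bckdhb. Of the 8 members with an entry in the table, 6 hold a CCAAT box, 3 a GC box and 2 a half-site. Of all 32851 promoters of the same length, 37.4% hold a CCAAT box, 35.7% a GC box and 16.3% a half-site, and a match describes the letters only.

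Positions are those of the GENCODE M21 annotation of GRCm38. Ivd (ENSMUSG00000027332.11, chromosome 2, 118861954 to 118882909, plus strand) encodes isovaleryl-CoA dehydrogenase, the first enzyme that is specific to leucine. It was at 246, 309 and 225 in the SD Mof+/+ libraries and at 114 and 76.0 in the HFD Mof+/+ libraries. Both HFD libraries lay far below the lowest SD library. Its log2 fold change of −1.44 ± 0.25 (SE) was the largest fall of the 10 genes, with an adjusted p of 0.0202 from edgeR's quasi-likelihood test. The same arm holds the 2 subunits of methylcrotonyl-CoA carboxylase. Mccc2 (ENSMUSG00000021646.8, chromosome 13, 99948530 to 100015639, minus strand), the non-biotin subunit, was at 97.0, 114 and 97.0 on SD and at 58.9 and 41.2 on HFD, with no overlap. It fell by 1.02 ± 0.22 on the log2 scale (adjusted p = 0.0333). Mccc1 (ENSMUSG00000027709.9, chromosome 3, 35959312 to 36000678, minus strand), the biotin-carrying subunit, was at 109, 148 and 121 on SD and at 78.8 and 70.7 on HFD. These groups did not overlap either, and the log2 fold change was −0.74 ± 0.20 with an adjusted p of 0.0641, short of the threshold.

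At the entry of the pathway, Bcat2 (ENSMUSG00000030826.18, chromosome 7, 45570153 to 45589711, plus strand) was at 85.5, 77.0 and 81.3 in SD Mof+/+ and at 41.2 and 44.5 in HFD Mof+/+. Its libraries were tightly grouped on each diet. The log2 fold change was −0.91 ± 0.17 (adjusted p = 0.0254). Dbt (ENSMUSG00000000340.10, chromosome 3, 116513070 to 116549981, plus strand), the E2 core that carries the acyl group within BCKDH, was at 95.1, 86.1 and 80.0 on SD and at 47.9 and 38.9 on HFD. It fell by 0.99 ± 0.19 on the log2 scale (adjusted p = 0.0256), again with no overlap.

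The other genes of the BCKDH complex did not pass the threshold. Bckdha (E1 alpha; ENSMUSG00000060376.7, chromosome 7, 25629946 to 25658981, minus strand) was at 149, 209 and 159 on SD and at 140 and 135 on HFD, a log2 fold change of −0.31 ± 0.21 (adjusted p = 0.375). Bckdhb (E1 beta; ENSMUSG00000032263.14, chromosome 9, 83925145 to 84124240, plus strand) was at 65.6, 68.7 and 39.0 on SD and at 70.6 and 82.1 on HFD. Both HFD libraries lay just above the highest SD library, with a log2 fold change of 0.42 ± 0.26 (adjusted p = 0.342). On CPM without the TMM factors the diets overlapped for Bckdhb (lowest HFD library 75.2, highest SD library 77.5). Bckdk (ENSMUSG00000030802.14, chromosome 7, 127904082 to 127910221, plus strand), the inhibitory kinase, was at 75.2, 73.9 and 88.5 on SD and at 63.9 and 62.2 on HFD. Its log2 fold change was −0.31 ± 0.18 (adjusted p = 0.297). Set per length against the E2 gene, Bckdhb was at 0.906 to 1.48 times the level of Dbt in the SD Mof+/+ libraries and at 2.74 and 3.91 times in the HFD Mof+/+ libraries.

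On the arms that end in succinyl-CoA, Mut (methylmalonyl-CoA mutase; ENSMUSG00000023921.8, chromosome 17, 40934685 to 40961988, plus strand) was at 90.6, 121 and 96.3 on SD and at 86.2 and 52.6 on HFD. The groups did not overlap but came close, and the log2 fold change was −0.55 ± 0.26 (adjusted p = 0.215). Hibadh (3-hydroxyisobutyrate dehydrogenase; ENSMUSG00000029776.11, chromosome 6, 52546228 to 52640389, minus strand) was at 151, 198 and 158 on SD and at 145 and 109.8 on HFD, a log2 fold change of −0.39 ± 0.21 (adjusted p = 0.276). Neither difference passed the threshold.

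**Figure D1:**
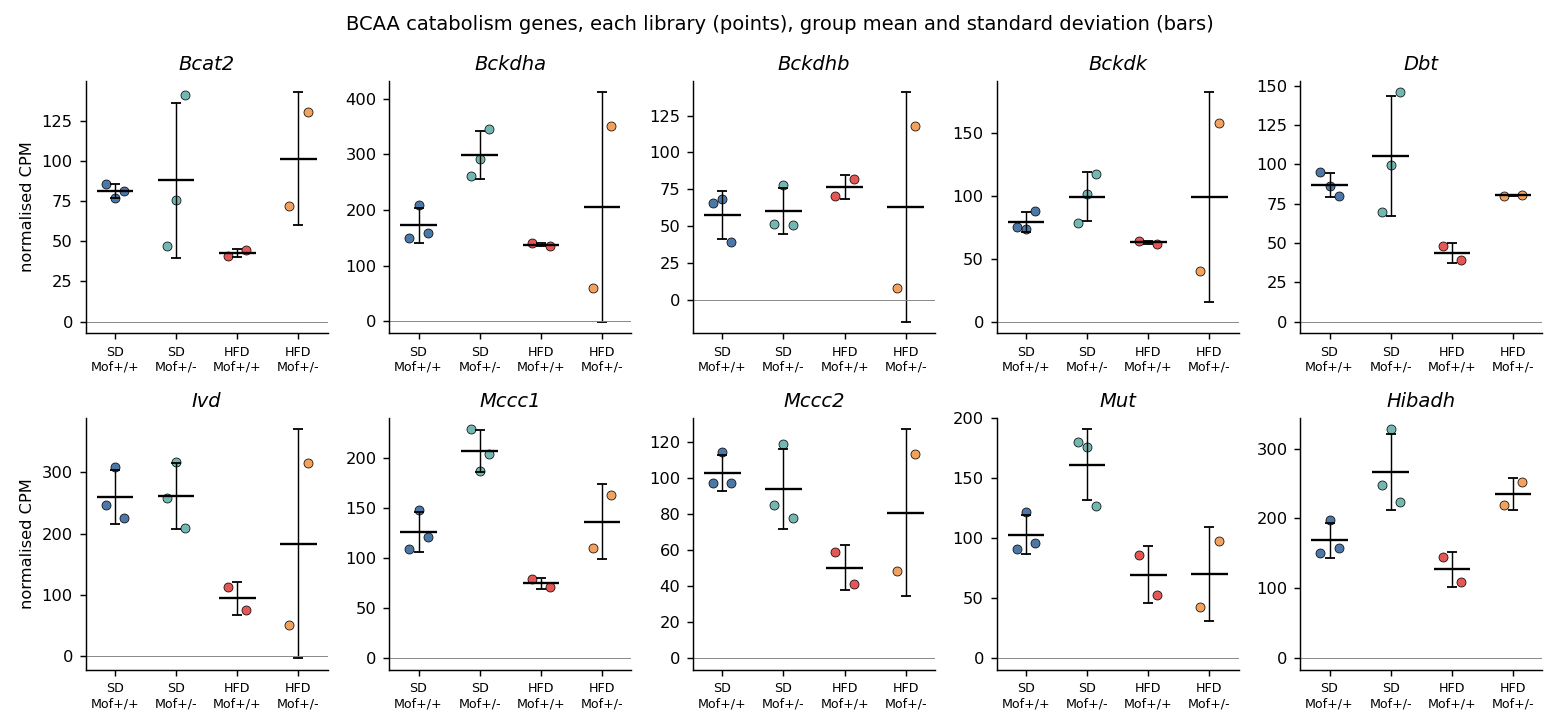
Normalised CPM (y axis, linear) of the 10 genes in each library (points) by group (x axis), with the group mean (line) and standard deviation (error bar). In Mof+/+ the HFD libraries lie below the SD libraries for 9 genes and above them for Bckdhb, which overlaps without the TMM factors, and the 2 HFD Mof+/- libraries lie far apart for most genes, as at 59.6 and 351 for Bckdha.

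These 4 calls rest on 5 libraries. Leaving out SD Mof+/+ replicate 1, HFD Mof+/+ replicate 1 or HFD Mof+/+ replicate 2 left 0 of the 10 genes past the threshold, where 0.503%, 0.258% and 0.0541% of all genes still passed as lower. The median log2 fold change of the 10 genes stayed between −0.81 and −0.47 with each library left out. Exchanging the third SD libraries as their column headings have it left 0 of the 10 genes and 0% of all genes past the threshold, with a median of −0.83, and fitting all 10 libraries together left 0 of the 10 and 0.174% of all genes as lower, with a median of −0.68. Without SD Mof+/+ replicate 2 the call of Mccc2 was lost, where 2.12% of all genes passed as lower, and DESeq2 in place of edgeR called Mccc1 as well, where it called 10.1% of all genes as lower. In the same comparison the 8 macrophage markers took 0.0861% to 0.157% of the counts in SD Mof+/+ and 0.444% and 0.582% in HFD Mof+/+, with 6 of the 8 higher at the threshold and none at 0 counts in any of these libraries. The 10 adipocyte markers took 3.40% to 4.09% and 3.79% and 3.45%, with 2 higher and 2 lower at the threshold, and the 7 endothelial markers 0.0989% to 0.238% and 0.0493% and 0.0384%, with 2 lower. Genes of the mitochondrial genome took 6.26% to 8.82% in SD Mof+/+ and 4.23% and 3.13% in HFD Mof+/+. The 6 progenitor markers took 0.378% to 0.499% and 0.301% and 0.333%, with 5 of the 6 lower and none past the threshold. Their part in the result was not tested, and in bulk tissue fewer cells of a type and less RNA per cell cannot be told apart.

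The rest of the pathway was read from a list of 23 other genes for transport, transamination, the E3 subunit and phosphatase of BCKDH, and the leucine, isoleucine, valine and propionyl-CoA arms. Between the diets in Mof+/+, 15 of them were lower and 8 higher on HFD. Their median log2 fold change was −0.35, and 2 passed the threshold, both lower. Aldh6a1, the methylmalonate semialdehyde dehydrogenase that follows HIBADH, was at 348, 556 and 376 on SD and at 146 and 88.5 on HFD. It fell by 1.85 ± 0.32 on the log2 scale (adjusted p = 0.0194), a larger estimate than that of any of the 10 genes. Acadsb, the dehydrogenase of the isoleucine arm, was at 194, 238 and 191 on SD and at 110.1 and 88.3 on HFD, a fall of 1.05 ± 0.20 (adjusted p = 0.0265). In both genes the diets did not overlap.

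Of the genes that share the steps of the 10, the mitochondrial BCAA carrier gene Slc25a44 had a log2 fold change of −1.06 ± 0.29 (adjusted p = 0.0648), and Dld, the E3 subunit that BCKDH shares with pyruvate dehydrogenase, one of −0.58 ± 0.18 (adjusted p = 0.0880). Ppm1k, the phosphatase that opposes BCKDK, was at 12.02, 15.4 and 20.8 on SD and at 9.09 and 7.10 on HFD, a log2 fold change of −0.98 ± 0.39 (adjusted p = 0.152). Bcat1, the cytosolic aminotransferase, was at 0.449, 13.7 and 9.95 on SD and at 10.6 and 9.97 on HFD, with a log2 fold change of 0.37 ± 1.02 (adjusted p = 0.853). None of these 4 genes passed the threshold. For comparison, where 52.2% of all genes had a log2 fold change below 0, all 13 genes of the pyruvate and 2-oxoglutarate dehydrogenase list were lower on HFD in Mof+/+ (median log2 fold change −0.66, 3 past the threshold), and 8 of the 15 tricarboxylic acid cycle genes were (median −0.21, 1 past it).

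**Figure D2:**
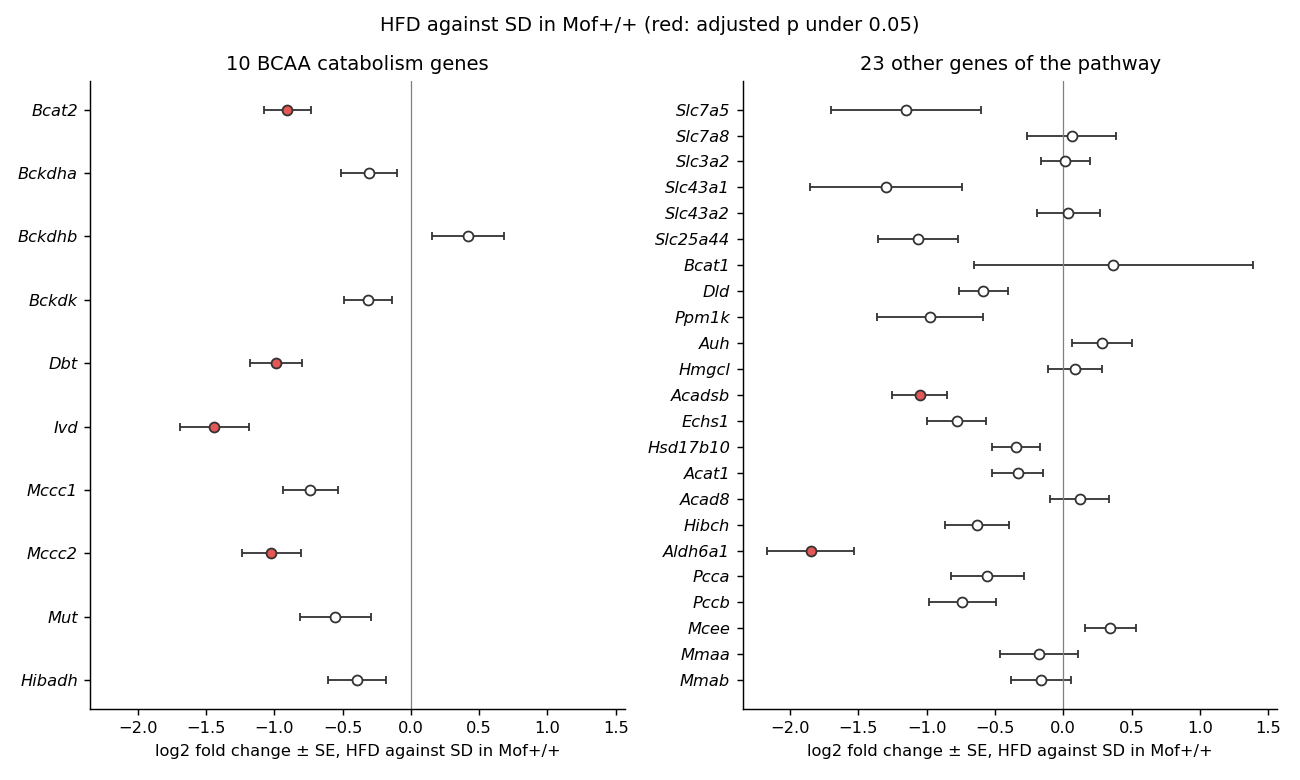
Log2 fold change of HFD against SD in Mof+/+ (x axis; points, with SE as bars) for the 10 BCAA catabolism genes (left) and 23 other genes of the pathway (right), filled where the adjusted p was under 0.05. The filled points are Bcat2, Dbt, Ivd and Mccc2 on the left and Acadsb and Aldh6a1 on the right, all below 0.

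Between the genotypes on SD, 8 of the 10 genes were higher in Mof+/- and 2 lower. Their median log2 fold change was 0.29, against −0.07 for all 13864 genes tested. None of the 10 passed the adjusted threshold, which 5.24% of all genes did. At an unadjusted p under 0.05, 4 genes were higher (Bckdha, Mccc1, Mut and Hibadh), against 14.1% of all genes, and the same 4 did not overlap between the genotypes, against 18% of all genes. On CPM without the TMM factors only Bckdha and Mccc1 were higher without overlap and Mccc2 was lower, where 9.71% of all genes were higher and 30.6% lower without overlap. DESeq2 called 2 of the 10 genes, Bckdha and Mccc1, against 16% of all genes, and edgeR with the transcript length offset called Mccc1 and Hibadh, against 2.74% of all genes.

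Bckdha was at 149, 209 and 159 in SD Mof+/+ and at 261, 291 and 345 in SD Mof+/-. Every Mof+/- library lay above every Mof+/+ library, and the log2 fold change was 0.79 ± 0.25 (adjusted p = 0.0899). Mccc1 was at 109, 148 and 121 in Mof+/+ and at 229, 187 and 204 in Mof+/-, a log2 fold change of 0.70 ± 0.23 (adjusted p = 0.0983). Its partner Mccc2, with which it forms the carboxylase, was at 97.0, 114 and 97.0 against 84.8, 119 and 77.8, and the genotypes overlapped. Without the TMM factors Mccc2 was at 110.4 to 129 CPM in Mof+/+ and at 65.4 to 109 CPM in Mof+/-, lower with no overlap.

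Hibadh was at 151, 198 and 158 in SD Mof+/+ and at 247, 328 and 224 in SD Mof+/-, a log2 fold change of 0.65 ± 0.25 (adjusted p = 0.145). Mut was at 90.6, 121 and 96.3 against 180.0, 176 and 127, a log2 fold change of 0.64 ± 0.24 (adjusted p = 0.144). The lowest Mof+/- library of Mut, replicate 3, lay close to the highest Mof+/+ library. The other 6 genes (Bcat2, Bckdhb, Bckdk, Dbt, Ivd and Mccc2) had log2 fold changes from −0.14 to 0.32, and their genotypes overlapped on normalised CPM.

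Bcat2 varied widely among the SD Mof+/- libraries, at 47.1, 75.9 and 141, against 77.0 to 85.5 in SD Mof+/+. Dbt ranged in the same way from 70.0 to 146 in SD Mof+/-. For both genes replicate 3 was the highest and replicate 1 the lowest of the Mof+/- libraries, on both sides of the Mof+/+ values.

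Of the 23 other pathway genes, 17 were higher and 6 lower in SD Mof+/- (median log2 fold change 0.39). None passed the adjusted threshold, and 7 were higher at an unadjusted p under 0.05. Of the 15 tricarboxylic acid cycle genes, 13 were higher in SD Mof+/- (median 0.40, 2 past the threshold). In the same libraries the 10 adipocyte markers took 3.40% to 4.09% of the counts in Mof+/+ and 6.17% to 9.11% in Mof+/-, with 5 of the 10 higher at the threshold. These were Adipoq, Cidec, Fabp4, Retn and Lpl. The other 5, Plin1, Lep, Pparg, Lipe and Cfd, did not pass, with log2 fold changes from −0.02 for Lep to 0.71 for Cfd. The 7 endothelial markers took 0.0989% to 0.238% and 0.0172% to 0.0285%, with 5 lower, and the 5 mesothelial markers 0.00225% to 0.00591% and 0.0151% to 0.0319%, with 3 higher. The 6 progenitor markers took 0.378% to 0.499% and 0.230% to 0.665%, with all 6 higher and 1 past the threshold. The 6 lymphocyte genes took 0.000589% to 0.0396% and 0.00095% to 0.00274%, with the 5 tested lower and none past the threshold. No adipocyte, endothelial or progenitor marker was at 0 counts, and Lrrn4 of the mesothelial list was at 0 in SD Mof+/+ replicate 1. Ms4a1 of the lymphocyte list was at 0 in replicates 1 and 2 of SD Mof+/+ and 2 and 3 of SD Mof+/-. The part of these lists in the result was not tested. With the third SD libraries exchanged as in their column headings, the median over the 10 genes was 0.03.

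**Figure D3:**
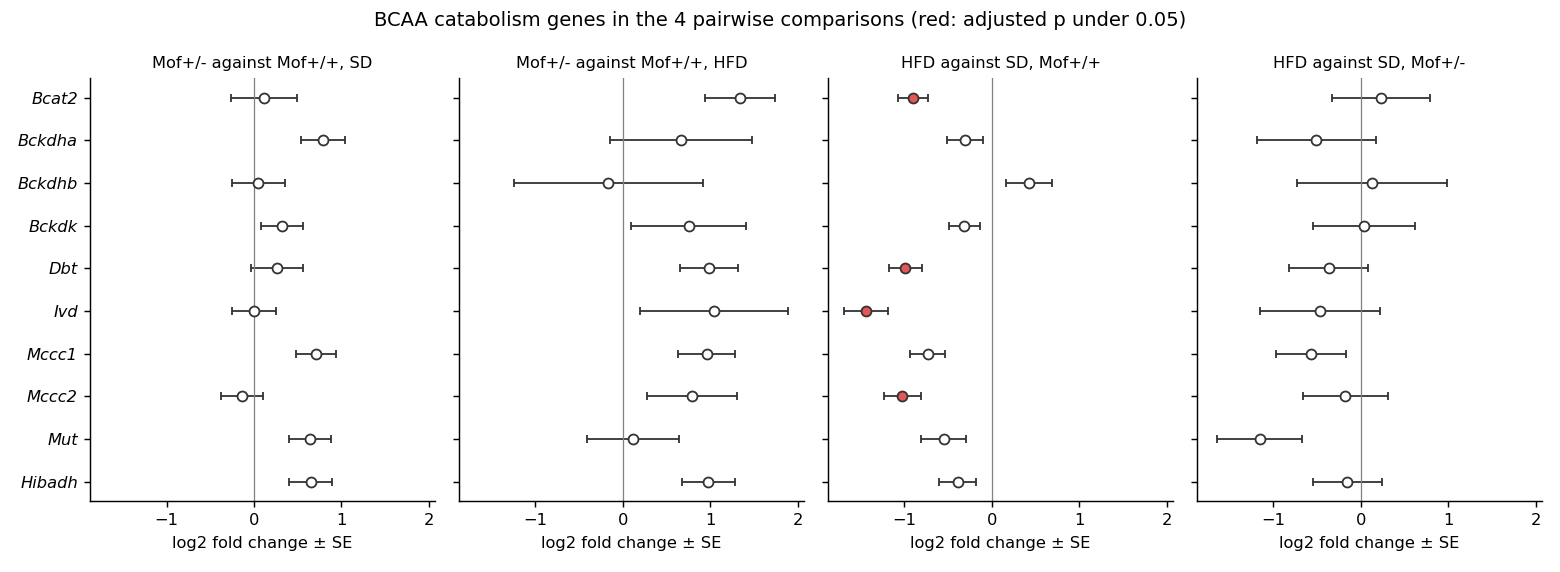
Log2 fold change (x axis; points, with SE as bars) of the 10 genes (y axis) in the 4 pairwise comparisons, filled where the adjusted p was under 0.05. Filled points stand only in the panel for HFD against SD in Mof+/+, and the bars are widest in the 2 comparisons that hold the HFD Mof+/- libraries.

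On HFD, 9 of the 10 genes were higher in Mof+/- than in Mof+/+. Their median log2 fold change was 0.87, against −0.24 for all 14120 genes tested. With the transcript length offset it was 1.76, where the median of all genes was 0.79. None passed the adjusted threshold, and of all genes 0% did. At an unadjusted p under 0.05, 4 of the 10 were higher (Bcat2, Dbt, Mccc1 and Hibadh), against 3.34% of all genes. The same 4 did not overlap, against 12.9% of all genes. DESeq2 called 0 of the 10 genes and 1.57% of all genes.

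Bcat2 was at 41.2 and 44.5 in HFD Mof+/+ and at 72.2 and 131 in the HFD Mof+/- replicates 1 and 2. Both Mof+/- libraries lay above both Mof+/+ libraries, and the log2 fold change was 1.34 ± 0.40 (adjusted p = 0.278). Dbt was at 47.9 and 38.9 against 80.2 and 80.7, a log2 fold change of 0.98 ± 0.33 (adjusted p = 0.328). It was the one gene of the 10 for which the 2 Mof+/- libraries gave nearly the same value. Hibadh was at 145 and 109.8 against 219 and 252 (log2 fold change 0.98 ± 0.30, adjusted p = 0.290), and Mccc1 at 78.8 and 70.7 against 110.0 and 163 (0.96 ± 0.33, adjusted p = 0.334).

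For the other genes the 2 Mof+/- libraries stood on opposite sides of the Mof+/+ libraries or nearly so. Bckdha was at 140 and 135 in Mof+/+ and at 59.6 and 351 in Mof+/-, a log2 fold change of 0.66 ± 0.81. Bckdhb was at 70.6 and 82.1 against 8.02 and 118, a log2 fold change of −0.17 ± 1.08. The value of 8.02 rests on 7 counts, and its 95% binomial confidence interval before TMM scaling (exact Clopper-Pearson, counting error only) was 2.69 to 13.8 CPM, so it lay below the Mof+/+ libraries by more than counting error.

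Bckdk was at 63.9 and 62.2 against 40.1 and 158, and Ivd at 114 and 76.0 against 51.5 and 316. Mccc2 was at 58.9 and 41.2 against 48.1 and 113, and Mut at 86.2 and 52.6 against 42.4 and 97.8. The log2 fold changes were 0.75 ± 0.66 for Bckdk, 1.04 ± 0.85 for Ivd, 0.79 ± 0.51 for Mccc2 and 0.12 ± 0.52 for Mut, none past the threshold (adjusted p from 0.705 to 0.960). For these 6 genes replicate 1 lay below or within the Mof+/+ values and replicate 2 above them.

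Replicate 2 lay above both Mof+/+ libraries for all 10 genes, whereas replicate 1 lay above them for 4, within them for 1 and below them for 5. The counts of the 10 genes in replicate 1 ran from 7 to 191, against at least 286 in every other library. Without HFD Mof+/- replicate 1, 9 of the 10 genes passed as higher in Mof+/- (all but Mut), where 10.2% of all genes did, and the median log2 fold change was 1.19. Without replicate 2, Bcat2, Dbt and Hibadh passed as higher and Bckdha and Bckdhb as lower, with a median of −0.31, where 13.7% of all genes passed as higher and 34.2% as lower. In both fits the lone Mof+/- library was assumed to vary like the Mof+/+ libraries.

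**Figure D4:**
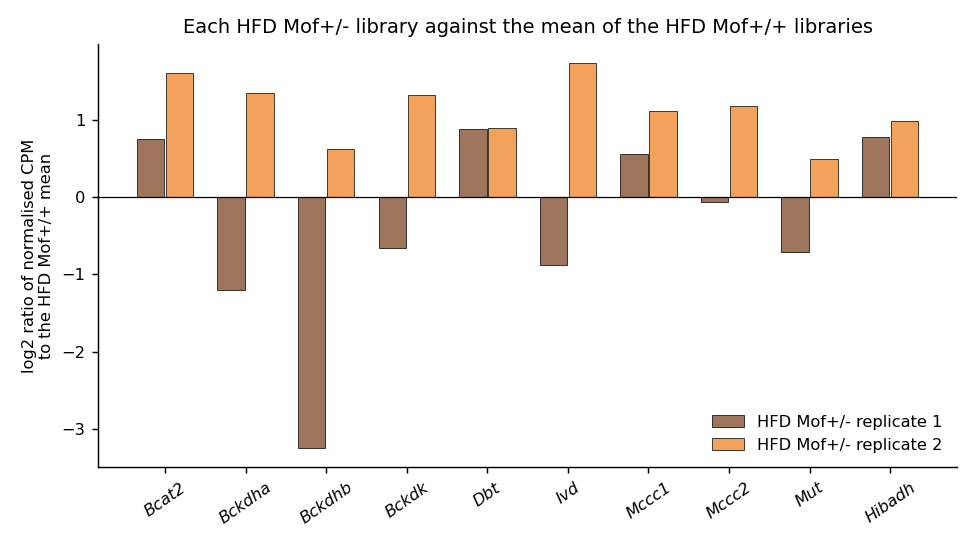
Log2 ratio of the normalised CPM of each HFD Mof+/- library to the mean of the 2 HFD Mof+/+ libraries (y axis; one bar per library, no error) for the 10 genes (x axis). Replicate 2 is above 0 for all 10 genes, from 0.49 for Mut to 1.73 for Ivd, and replicate 1 runs from −3.25 for Bckdhb to 0.89 for Dbt.

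Of the 23 other pathway genes, 18 were higher and 5 lower in HFD Mof+/- (median log2 fold change 0.36), and 0 passed the threshold. At an unadjusted p under 0.05, 0 were higher and 1 was lower (Slc43a2, a transporter of large neutral amino acids, log2 fold change −1.57 ± 0.50, named after its value was seen). The tricarboxylic acid cycle genes had 14 of 15 higher, a median of 0.88 and 10 higher without overlap. The pyruvate and 2-oxoglutarate dehydrogenase list had 9 of 13 higher, a median of 0.70, and 7 higher and 2 lower without overlap. The 23 other pathway genes had 6 higher and 3 lower without overlap. Of all genes, 12.9% were higher and 38.1% lower without overlap. The macrophage markers took 0.444% and 0.582% of the counts in HFD Mof+/+ and 0.125% and 0.226% in HFD Mof+/-, where Adgre1 was at 0 counts in replicate 1. The adipocyte markers took 3.79% and 3.45% against 1.94% and 4.90%. The 16 skeletal muscle genes took 0.00809% and 0.00909% in HFD Mof+/+ and 8.38% and 0.201% in HFD Mof+/-, and all 16 were higher. The 4 brown adipocyte markers took 0.00144% and 0.00131% against 0.0486% and 0.0104%, with all 3 that were tested higher. Elovl3 of that list was at 0 counts in HFD Mof+/+ replicate 1 and HFD Mof+/- replicate 1, and Ucp1 in HFD Mof+/+ replicate 2. No muscle or brown adipocyte marker passed the threshold. The 6 progenitor markers took 0.301% and 0.333% against 0.1003% and 0.261%, with 5 of the 6 lower and Dpp4 at 0 counts in HFD Mof+/- replicate 1, and the 7 endothelial markers 0.0493% and 0.0384% against 0.0274% and 0.0318%, with 5 of the 7 lower. None of these passed the threshold. Replicate 1 had the lower adipocyte share, and the part of these lists in the values of the 10 genes was not tested.

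Between the diets in Mof+/-, 7 of the 10 genes were lower on HFD and 3 higher. Their median log2 fold change was −0.27, close to the −0.26 of all 13610 genes tested. With the transcript length offset it was 0.45, where the median of all genes was 0.56. None of the 10 passed the adjusted threshold, and of all genes 0% did. At an unadjusted p under 0.05 only Mut was lower, against 5.48% of all genes. It was at 180.0, 176 and 127 on SD and at 42.4 and 97.8 on HFD, a log2 fold change of −1.16 ± 0.49 (adjusted p = 0.571). Without overlap, 2 genes were lower, against 20.3% of all genes. These were Mut and Mccc1, which was at 229, 187 and 204 on SD and at 110.0 and 163 on HFD.

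With HFD Mof+/- replicate 1 left out, the median over the 10 genes was 0.26, and with replicate 2 left out it was −1.12, with Bckdha, Bckdhb and Ivd past the threshold as lower, where 10.7% of all genes were. DESeq2 called 0 of the 10 and 3.07% of all genes. Of the 23 other pathway genes, 18 were lower and 5 higher on HFD in Mof+/-, with a median of −0.52 and 0 past the threshold. The adipocyte markers, of which 9 of the 10 were lower on HFD and 0 passed the threshold, took 6.17% to 9.11% of the counts in SD Mof+/- and 1.94% and 4.90% in HFD Mof+/-. All 16 skeletal muscle genes were higher on HFD (0.00642% to 0.0122% of the counts on SD, 8.38% and 0.201% on HFD), and so were the 3 brown adipocyte markers tested (0.000798% to 0.00151% on SD, 0.0486% and 0.0104% on HFD for the list of 4). The 6 progenitor markers were lower on HFD (0.230% to 0.665% on SD, 0.1003% and 0.261% on HFD), and so were the 5 mesothelial markers (0.0151% to 0.0319% on SD, 0.0117% and 0.0000904% on HFD). At 0 counts were 4 to 8 of the muscle genes and Elovl3 in each SD Mof+/- library, Ucp1 in SD Mof+/- replicates 1 and 3, Wt1 in both HFD Mof+/- libraries, Dpp4 in replicate 1 and Upk3b, Lrrn4 and Msln in replicate 2. No gene of these 4 lists passed the threshold, and the part of the marker lists in these values was not tested.

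The difference between the diet responses of the genotypes was tested as an interaction over all 10 libraries. The 10 genes had a median interaction of 0.29 on the log2 scale, against −0.41 for all 15897 genes tested, with 7 genes above 0 and 3 below. With single libraries left out this median ran from −0.54 to 0.64, and with the transcript length offset it was 0.99. None passed the adjusted threshold, which 0.0881% of all genes did, and 0 of the 10 did so at an unadjusted p under 0.05, against 12.4% of all genes. The smallest adjusted p was 0.483, for Bcat2. DESeq2 called 0 of the 10 and 3.44% of all genes. Without HFD Mof+/- replicate 2, Bckdha and Bckdhb passed with an interaction below 0, where 14.9% of all genes did. The interaction uses the SD Mof+/- libraries, in which sex and genotype cannot be told apart. The fall of Ivd, Mccc2, Dbt and Bcat2 on HFD in Mof+/+ is therefore not shown to differ from the response in Mof+/-. Both comparisons of the genotypes and both comparisons of the diets share their libraries in part, and their values are given side by side only.

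The balance of the inhibitory kinase against the complex was expressed as the log2 ratio of Bckdk to the geometric mean of Bckdha, Bckdhb and Dbt, which needs no scaling between libraries. It was −0.37, −0.54 and 0.16 in SD Mof+/+ and −0.32, −0.37 and −0.21 in SD Mof+/-. On HFD it was −0.29 and −0.28 in Mof+/+ and 0.25 and 0.08 in Mof+/-. The value of 0.25, in HFD Mof+/- replicate 1, rests on the 7 counts of Bckdhb and ran from −0.10 to 0.69 between the bounds of their counting interval, so its rank among the libraries is uncertain. Replicate 2 lay above all libraries of the other groups except SD Mof+/+ replicate 3. The difference between the genotypes on HFD was 0.45 (p = 0.333 from a two-sided exact permutation test, where 2 libraries against 2 cannot go lower). Between the diets in Mof+/- it was 0.47 (p = 0.1 from the same exact test, which 3 against 2 cannot go below), and in the other 2 comparisons −0.05 and −0.03 (exact p = 1 in both). No comparison of this ratio could reach 0.05.

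Over the 10 libraries the genes mostly varied together. Of the 45 pairs, 43 had a Pearson r above 0 on log2 normalised CPM, with a median of 0.61 and a range from −0.15 to 0.95. Ivd followed the mean of the other 9 most closely (r = 0.89) and Bckdhb least (r = 0.38). The 10 points share library, depth and group, and r is a description. The mean Z-score of the 10 genes was 0.01, 0.32 and −0.03 in SD Mof+/+, 0.33, 0.83 and 0.75 in SD Mof+/-, −0.75 and −1.16 in HFD Mof+/+, and −1.16 and 0.86 in HFD Mof+/-.

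Mean counts of 50 or more were found for 11299 other genes. The 5 whose log2 values followed this mean Z-score most closely over the 10 libraries were Echs1 (r = 0.99), Sephs2 (0.98), Ces1d (0.97), Lipe (0.96) and Ppa1 (0.96). Echs1 encodes the short-chain enoyl-CoA hydratase of the isoleucine and valine arms and is on the list of other pathway genes. Sephs2 encodes a selenophosphate synthetase, Ces1d a carboxylesterase, Lipe the hormone-sensitive lipase, which is also one of the 10 adipocyte markers, and Ppa1 a pyrophosphatase. With HFD Mof+/- replicate 1 left out, r was 0.95 to 0.98 for the same 5 genes.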

How the data were processed

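Visceral WAT mRNA was measured in 10 libraries grouped by the sample labels. The authors aligned reads with STAR (GRCm38), and the values they deposited are the raw counts that featureCounts gave for each gene (Subread 1.5.0-p1 per the labels), not normalized. The release of their annotation is not given in the sources used here. The members and all gene lists were chosen with earlier results of these data known. Symbols, positions and exon lengths came from GENCODE M21, which matched 47224 of 47937 identifiers to a symbol. Library totals of 1.04 to 17.2 M counts set the precision, and the floor for detection was 3 counts.

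For each comparison, edgeR 4.0.16 in R 4.3.3 was run on the libraries compared, with filterByExpr, TMM and its quasi-likelihood test, and for the interaction on all 10. P-values were adjusted over all genes tested by the Benjamini-Hochberg method with a threshold of 0.05. RPKM used TMM-scaled totals and the merged length of all annotated exons of a gene. The procedure was run on simulated counts with less spread between replicates than these data. Its error and power at the real spread were not measured. Alternatives were DESeq2 1.42.0, its size factors, other filters on low counts, the replicate number as a block, a transcript length offset, all 10 libraries in one fit, TMM without muscle and mitochondrial genes, the third SD libraries exchanged, and each library left out in turn. The named genes were the 10 members, Kat8, other pathway genes past the threshold, Bcat1, Ppm1k, Dld, Slc25a44, and the 5 genes most alike. Figures were drawn with matplotlib (Python).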

Additional observations from a re-analysis of the deposited data

How the results depend on the processing

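Of 180 alternative values for the counts and medians over the 10 genes and for the kinase ratio, 22 moved by more than the spread between replicates (medians and ratio) or by more than 1.5 times (counts). For the medians this spread was pooled over all groups, with the HFD Mof+/- libraries that lay far apart. Smaller moves in comparisons without those libraries were therefore not counted. Over the 5 comparisons, 64 of the 777 alternative fold changes of the 10 genes changed sign (23 for diet in Mof+/-, 20 for genotype on SD, 12 in the interaction, 8 for genotype on HFD and 1 for diet in Mof+/+). Of the 358 that belong to genotype on HFD, diet in Mof+/+ or a gene at an unadjusted p under 0.05 in the other 2 pairwise comparisons, 308 kept their direction and side of the threshold, 18 passed it, 23 lost it and 9 changed sign. Between the genotypes on SD, DESeq2 and the transcript length offset each called 2 of the 10 genes in place of 0. Between the diets in Mof+/+ the count of 4 became 2 with the replicate block (Dbt and Ivd, where 3.92% of all genes passed as lower), 0 with all 10 libraries in one fit and 0 with the third SD libraries exchanged. Libraries with the same replicate number did not deviate together (correlations of deviations from −0.04 to 0.03), so the numbers do not pair the libraries. With the transcript length offset, without and with the replicate block, the median log2 fold change was 1.76 and 1.75 between the genotypes on HFD, 0.45 and 0.49 between the diets in Mof+/-, and 0.99 and 1.002 in the interaction, where the medians of all genes moved as well (0.79 and 0.55, 0.56 and 0.40, and 0.47 and 0.40). Bckdhb changed sign to 0.066 between the genotypes on HFD with the offset and to −0.17 between the diets in Mof+/+ with block and offset. The cause of these moves was not tested.

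When single libraries were left out, the count of the 10 genes past the threshold ran from 0 to 9 between the genotypes on HFD, 0 to 4 between the diets in Mof+/+, 0 to 3 between the diets in Mof+/- and 0 to 2 in the interaction, and stayed at 0 between the genotypes on SD. The medians ran from −0.31 to 1.19, −0.81 to −0.47, −1.12 to 0.26, −0.54 to 0.64 and 0.17 to 0.49 in the same order. Single genes between the genotypes on HFD ran from −1.17 to 1.39 for Bckdha, −3.21 to 0.66 for Bckdhb, −0.61 to 1.36 for Bckdk, −0.84 to 1.77 for Ivd, −0.014 to 1.22 for Mccc2 and −0.67 to 0.53 for Mut. Where this left 1 library in a group, its spread was taken from the others. The upper counts of 9, 3 and 2 came from such fits. With single SD libraries left out, each group kept at least 2 libraries. Of all genes, 0.115% to 6.89% then passed in either direction between the genotypes on SD. Between the diets this share was 1.63% to 14.9% in Mof+/+ and 0% in Mof+/-, and in the interaction 0.0379% to 0.0646%. The 1.04 M counts of HFD Mof+/- replicate 1 limit what can be seen in every comparison that uses it.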
